A study of Mus musculus with 4 samples.

Results

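The 36 genes described here encode nuclear hormone receptors found in or around the liver, namely receptors for lipids, foreign compounds, steroids, thyroid hormone and retinoids and their orphan relatives. They were taken by symbol from the 30085 genes on the array, and the clock and bile acid receptors are not among them. The rule uses no measured value, but the set and the gene lists below were chosen with earlier results of these data known. Expression was measured in livers of C57BL/6N mice labelled Pnpla7-/- (KO) or wild type (WT), at 3 and at 6 weeks of age. Each of the 4 groups, KO at 3 weeks, WT at 3 weeks, KO at 6 weeks and WT at 6 weeks, had 1 one-colour array of RNA pooled in equal amounts from 5 livers. The sex of the mice, the time of day of sampling and the part of Pnpla7 that was deleted are not given in the sources used here.

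Nuclear receptors are transcription factors that bind DNA directly, mostly as dimers, and many are switched by a small fat-soluble ligand. In hepatocytes, lipid and xenobiotic receptors pair with a retinoid X receptor and set the transcription of genes for cholesterol, fatty acid and drug metabolism. Steroid receptors carry hormonal signals such as those of glucocorticoids into the nucleus, and HNF4A maintains the hepatocyte programme as a whole. The NR4A receptors differ in that they act without a known classical ligand and are themselves induced within a short time of a stimulus.

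The promoters of 3 of the receptors whose signal lay at least 2-fold apart between arrays are printed here because their sequences hold short elements named for regulators of the clock or of the cyclic AMP response. Each is the 250 bases upstream of the start of the gene in RefSeq, 5′ to 3′ on the strand of the gene, in build GRCm38.p6, with matches in capitals. The windows are chr1:171213720-171213969 on the plus strand for Nr1i3, chr15:101266596-101266845 on the plus strand for Nr4a1, and chr2:57124004-57124253 on the minus strand for Nr4a2.
Nr1i3: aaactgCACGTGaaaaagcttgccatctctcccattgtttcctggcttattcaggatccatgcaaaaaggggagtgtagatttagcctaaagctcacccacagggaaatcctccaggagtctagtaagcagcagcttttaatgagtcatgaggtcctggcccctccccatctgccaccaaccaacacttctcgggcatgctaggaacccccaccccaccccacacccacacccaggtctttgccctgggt
Nr4a1: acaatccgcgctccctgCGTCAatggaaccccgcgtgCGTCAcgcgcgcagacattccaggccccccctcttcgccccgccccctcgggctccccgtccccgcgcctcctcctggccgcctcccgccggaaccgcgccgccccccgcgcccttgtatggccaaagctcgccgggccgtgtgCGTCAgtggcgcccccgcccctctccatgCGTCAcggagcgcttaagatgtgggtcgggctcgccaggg
Nr4a2: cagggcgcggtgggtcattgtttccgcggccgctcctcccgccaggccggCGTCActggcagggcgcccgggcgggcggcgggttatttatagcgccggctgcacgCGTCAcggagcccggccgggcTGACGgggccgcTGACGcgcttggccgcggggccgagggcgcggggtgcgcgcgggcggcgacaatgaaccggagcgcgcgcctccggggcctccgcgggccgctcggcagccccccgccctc
The capitals mark CACGTG, the E-box read by clock factors among others, in Nr1i3, and TGACG or its reverse complement CGTCA, the core of the cyclic AMP response element, in the NR4A genes. Nr1i3 had 1 E-box, and Nr4a1 and Nr4a2 each had 4 cyclic AMP response cores. Elements were searched on both strands in all 32851 promoter windows of the table and in the 52 windows of the 33 receptor genes that matched it, and the marked matches do not overlap one another. TGACG stood in 17.8% of all windows and in 9 of the 52 receptor windows (17.3%), and CACGTG in 6.02% of all windows and in 3 of the 52. The nuclear receptor core AGGTCA stood in 14.0% of all windows and in 9 of the 52, and the glucocorticoid receptor core AGAACA in 16.1% and in 3. The clock output element TTATGTAA stood in 0.819% of all windows and in 0 of the 52. A match is a run of letters and not a shown binding site.

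Of 43020 non-control spots on each array, 28714 to 30697 were well above background. Signals are given as the processed intensity divided by the 75th percentile of the same array, and they compare arrays for 1 probe, not genes with each other. A group had 1 array, so no difference has a replicate check, and receptors were counted where 2 arrays lay at least 2-fold apart, a log2 ratio of 1 or more in size. The only measured error is that between spots of one probe. It gave a log2 KO/WT ratio at 3 weeks an SD of 0.202 for signals under 0.1, 0.0917 between 0.1 and 1, 0.0875 between 1 and 10 and 0.0814 above 10. At 6 weeks the same SDs were 0.217, 0.121, 0.103 and 0.0946. These SDs leave out differences between pools of mice. Pnpla7 itself had a signal of 6.70 on the array labelled KO and 7.54 on that labelled WT at 3 weeks, and of 4.42 and 9.65 at 6 weeks, log2 ratios of -0.17 and -1.13. It had 1 probe (mm9 chromosome 2, 24908961 to 24909192), which may lie outside the deleted part. The genotype is therefore not established by these arrays, and KO and WT here mean the arrays labelled so.

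All 12 hepatocyte markers were well above background on all arrays, with median log2 KO/WT ratios of -0.01 at 3 weeks and 0.23 at 6 weeks. Markers of another tissue moved with the KO label: 20 of 20 skeletal muscle genes were at least 2-fold higher in KO at 3 weeks and 19 of 20 at 6 weeks. Their summed muscle signal was 79.9 in KO and 1.0 in WT at 3 weeks, and 54.1 in KO and 1.79 in WT at 6 weeks. Of 9 pancreatic acinar markers, 4 were higher in KO by 2-fold or more at 6 weeks and 0 lower. These 4 were dim: all but Cela2a, with 0.0629 in KO and 0.0300 in WT, were bounds with 1 array well above background. The summed signal of the 9 was 6.46 in KO and 4.05 in WT. Most of it came from Amy2a5, with 5.63 in KO and 3.45 in WT, which was not past 2-fold. At 3 weeks, 0 of the 5 acinar markers compared were past 2-fold. At 3 weeks 5 of 11 male-biased liver genes were higher in KO by 2-fold or more and 7 of 11 female-biased ones were lower. At 6 weeks 3 of 11 male-biased genes were higher and 1 lower, and 4 of 12 female-biased genes were lower and 1 higher. At 6 weeks, 9 of 11 markers of dividing cells and 3 of 12 markers of Kupffer cells were at least 2-fold lower in KO. Beside these marker counts, 2.94% of all genes were higher and 2.98% lower at 3 weeks, and 6.51% and 4.56% at 6 weeks. The part of these markers in the receptor values was not tested, and in a whole liver fewer cells of a type and less RNA per cell cannot be told apart. All arrays lay on 1 slide, where the place of an array cannot be told apart from its group.

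Most of the receptor set differed little between KO and WT. Of the 36 receptors, 30 were well above background on all 4 arrays and entered every comparison. At 3 weeks 1 of these 30, Nr6a1, was at least 2-fold lower in KO and 0 were higher (3.33%), against 5.92% of all 21169 genes compared, 2.94% higher and 2.98% lower. At 6 weeks Nr1i3, Nr3c2 and Esrrg were at least 2-fold higher in KO and Nr4a2 was lower, 4 of 30 or 13.3%. Of 21357 genes compared, 11.1% were past 2-fold, 6.51% higher and 4.56% lower. The all-gene shares and medians in this paragraph include genes dim on 1 array of the pair. Among the 18890 genes well above background on all 4 arrays, as the 30 receptors were, 2.18% were past 2-fold at 3 weeks and 6.74% at 6 weeks. The receptor shares lie above these but rest on 1 and 4 receptors. Within 1.5-fold lay 26 of 30 receptors at 3 weeks and 26 of 30 at 6 weeks, where 10.8% and 22.9% of all genes lay past 1.5-fold. The median log2 ratio was 0.00 at 3 weeks and -0.01 at 6 weeks, beside 0.00 and 0.05 over all genes. The median size of the ratio was 0.112 at 3 weeks and 0.170 at 6 weeks for receptors, and 0.127 and 0.265 for all genes. No receptor was past 2-fold in the same direction at both ages.

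**Figure D1:**
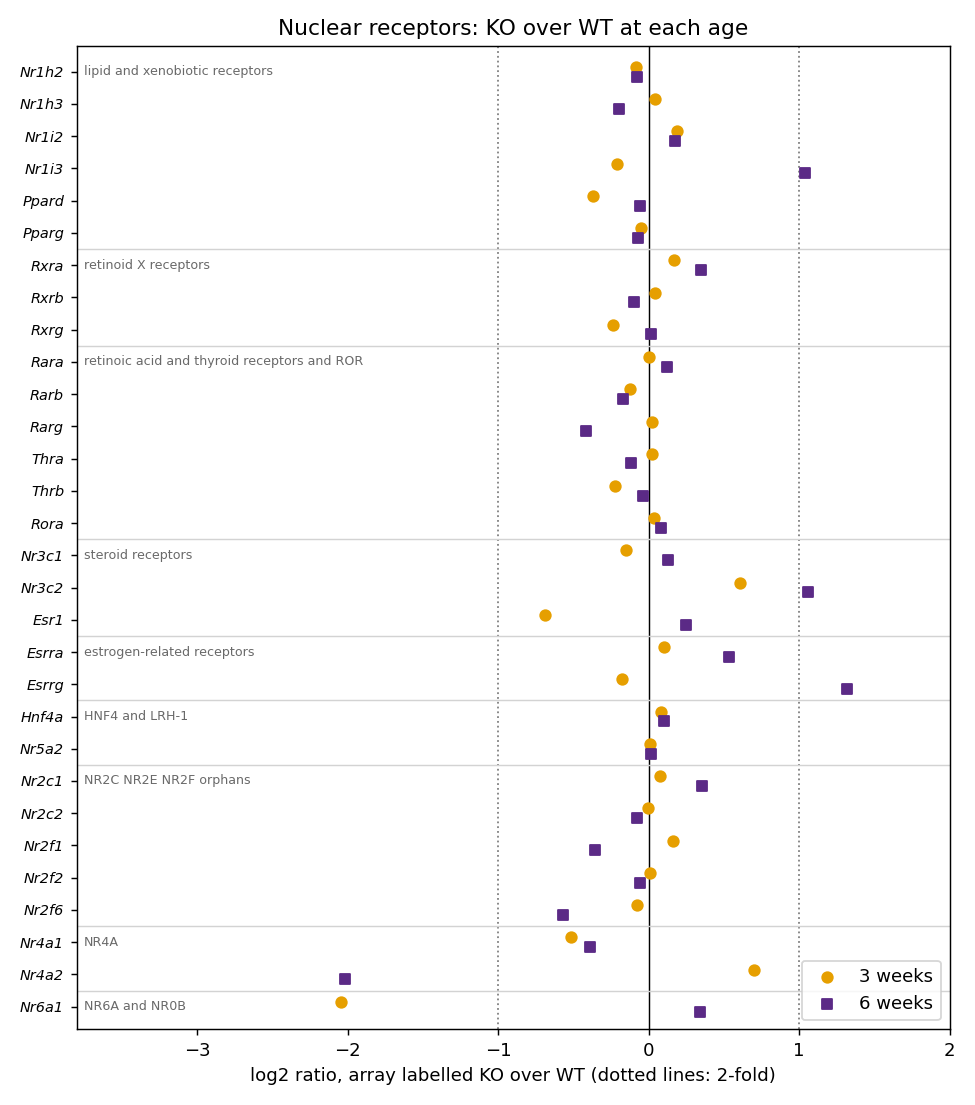
Log2 ratio of the array labelled KO over the array labelled WT (x axis) for the 30 receptors well above background on all 4 arrays, in rows by role, with circles for 3 weeks and squares for 6 weeks. Most points sit inside the dotted 2-fold lines. Nr6a1 at 3 weeks and Nr4a2 at 6 weeks lie far to the left, and Nr1i3, Nr3c2 and Esrrg at 6 weeks lie to the right.

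Receptors past 2-fold were mostly dim. By mean signal of under 0.1, 0.1 to 1, 1 to 10 and over 10, the receptors past 2-fold at 3 weeks were 1 of 3, 0 of 8, 0 of 16 and 0 of 3, where the shares of all genes were 15.7%, 3.08%, 0.657% and 0.539%. At 6 weeks they were 2 of 3, 1 of 8, 0 of 14 and 1 of 5, and the shares of all genes 22.8%, 7.79%, 3.72% and 4.88%. Dim probes were past 2-fold more often in all genes, and their ratios have the larger error.

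**Figure D2:**
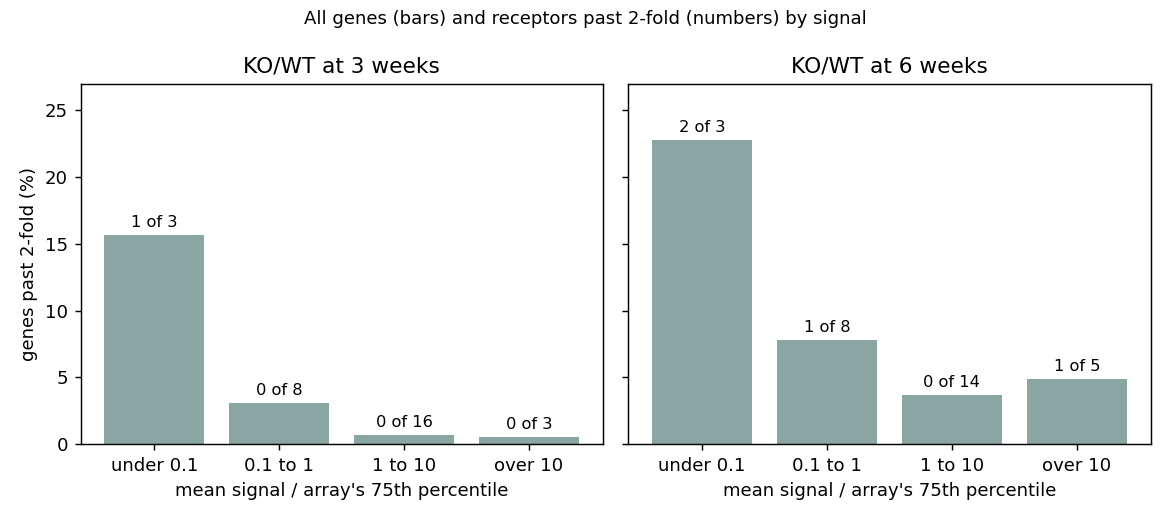
Bars give the share of all genes past 2-fold between KO and WT (y axis, percent) by band of mean signal (x axis), at 3 weeks on the left and 6 weeks on the right. The numbers above the bars count the receptors past 2-fold among those in the band, such as 2 of 3 under 0.1 at 6 weeks.

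Among the receptors for lipids and foreign compounds, only Nr1i3 was past 2-fold between genotypes. Nr1i3 encodes CAR, which switches on drug-metabolising enzymes, and was read at mm9 chromosome 1, 173148765 to 173148824. Its signal was 7.87 in KO and 9.11 in WT at 3 weeks, and 22.4 in KO and 10.9 in WT at 6 weeks. The KO array at 6 weeks thus stood apart from the other 3, with log2 KO/WT ratios of -0.21 at 3 weeks and 1.04 at 6 weeks. A second Nr1i3 probe read 3.02 in KO and 3.38 in WT at 3 weeks, and 8.39 in KO and 4.40 in WT at 6 weeks, so the later log2 KO/WT ratio was 0.93. The 6-week ratio is at the edge of the 2-fold rule, and it lay between 0.85 and 1.04 over 8 other ways of processing. It was under 2-fold with a normexp background correction, with quantile normalization and with the mean of all probes. The 5 ways past 2-fold include the background filters, which could not change this ratio, and the deposited table, which hardly could.

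The partner receptor for foreign compounds, PXR (Nr1i2), had signals of 2.62 in KO and 2.30 in WT at 3 weeks and of 3.13 in KO and 2.77 in WT at 6 weeks. Its log2 ratios of 0.19 and 0.17 were near each other. The oxysterol receptors LXR beta (Nr1h2) and LXR alpha (Nr1h3), which govern cholesterol export and lipogenesis, differed by at most 0.20 in size on the log2 scale at either age. Nr1h3 had 19.4 in KO and 18.9 in WT at 3 weeks, and 17.0 in KO and 19.6 in WT at 6 weeks. Pparg, the adipogenic fatty acid receptor, was read by 10 spots and had 1.72 in KO and 1.78 in WT at 3 weeks and 2.06 in KO and 2.16 in WT at 6 weeks. Ppard, a fatty acid receptor expressed in most tissues, had 1.31 in KO and 1.69 in WT at 3 weeks and 0.597 in KO and 0.623 in WT at 6 weeks. Both genotypes therefore had lower Ppard signals at 6 weeks, while within an age its log2 KO/WT ratios were -0.37 and -0.06. Vdr, the vitamin D receptor, was not well above background on any array.

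**Figure D3:**
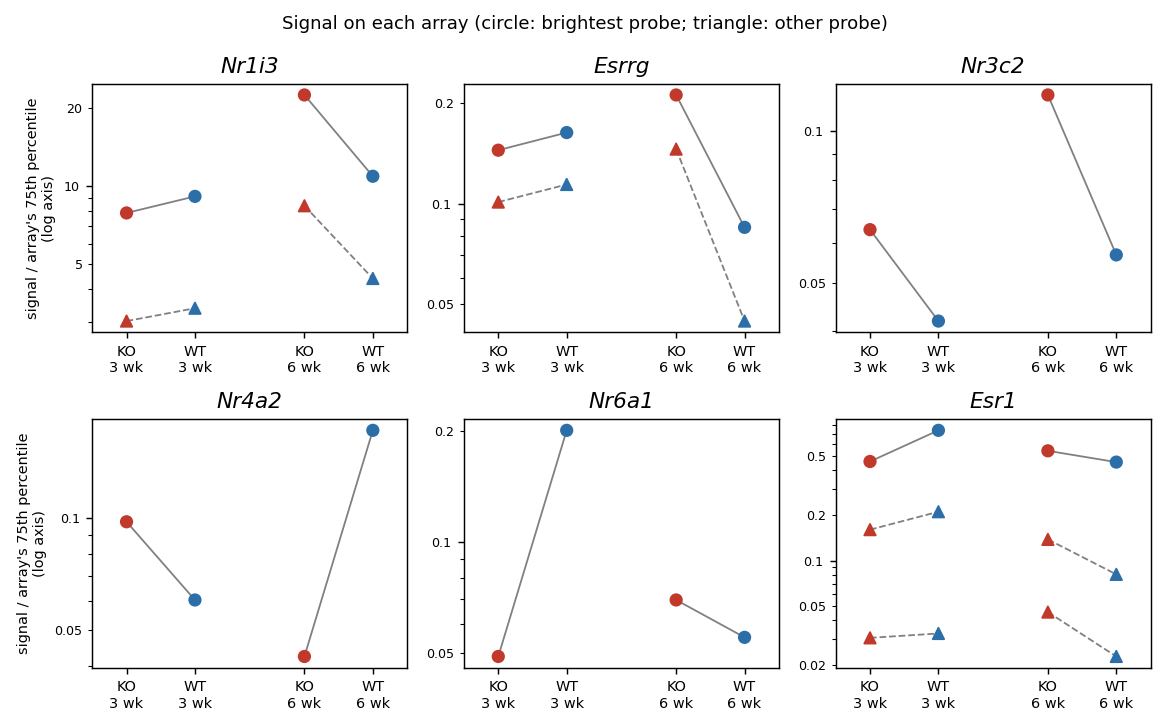
Signal divided by the 75th percentile of the array (y axis, log scale) of 6 receptors on the 4 arrays, KO left of WT at each age. Circles are the brightest probe of each gene and triangles other probes well above background on all arrays. In Nr1i3, Esrrg and Nr3c2 the KO array at 6 weeks is highest, in Nr4a2 the WT array at 6 weeks, and in Nr6a1 and the brightest Esr1 probe the WT array at 3 weeks.

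Retinoid X receptors, the shared dimer partners, were within 2-fold in every comparison. Rxra had 0.518 in KO and 0.461 in WT at 3 weeks and 0.687 in KO and 0.540 in WT at 6 weeks, log2 ratios of 0.17 and 0.35. Rxrb had 7.10 and 6.88 in KO and WT at 3 weeks and 8.03 and 8.60 at 6 weeks, and Rxrg, a form also found in muscle, had 2.77 and 3.26 at 3 weeks and 3.23 and 3.19 at 6 weeks. The Rxrg ratios were -0.23 and 0.02. The part of muscle RNA in the Rxrg signal was not tested.

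Receptors for retinoic acid and thyroid hormone and the sterol-responsive orphan Rora were likewise within 2-fold. Rara had 4.53 in KO and 4.52 in WT at 3 weeks and 5.13 in KO and 4.72 in WT at 6 weeks. Rarb, itself a retinoic acid target, had log2 KO/WT ratios of -0.12 and -0.17 on its brightest probe. Another, dim Rarb probe was well above background only in WT at 3 weeks and at least 1.69-fold lower in KO, and the mean of all probes gave -0.73 (3 weeks) and 0.05 (6 weeks). Rarg had 0.927 in KO and 0.913 in WT at 3 weeks, and 0.933 in KO and 1.25 in WT at 6 weeks, where its ratio was -0.42. Of the thyroid hormone receptors, Thrb, the main hepatic form, had 1.01 in KO and 1.18 in WT at 3 weeks and 1.25 in KO and 1.28 in WT at 6 weeks. Thra had 2.57 in KO and 2.53 in WT at 3 weeks and 2.28 in KO and 2.48 in WT at 6 weeks. The brighter Rora probe had ratios of 0.04 and 0.08, whereas a dim second probe had 0.11 at 3 weeks and 0.84 at 6 weeks, so the Rora probes differ at 6 weeks.

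Among the steroid receptors, Nr3c2 was past 2-fold at 6 weeks and Nr3c1 was not past 1.5-fold at either age. Nr3c2 encodes the mineralocorticoid receptor, which also binds glucocorticoids, and has 1 probe, at mm9 chromosome 8, 79766370 to 79766429. Its signal was 0.0637 in KO and 0.0419 in WT at 3 weeks and 0.118 in KO and 0.0568 in WT at 6 weeks, log2 ratios of 0.60 and 1.06. KO was the higher of the pair at both ages, but the signal is dim, and with a normexp background correction the 6-week ratio was 0.62. Nr3c1, the glucocorticoid receptor, had 8.62 in KO and 9.56 in WT at 3 weeks and 11.55 in KO and 10.6 in WT at 6 weeks, log2 ratios of -0.15 and 0.13. Pgr, the progesterone receptor, was not well above background on any array.

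Esr1, the estrogen receptor that carries sex hormone signals in liver, differed between ages in the sign of its ratio. Its 10 spots ran from 0.410 to 0.484 in KO and from 0.690 to 0.783 in WT at 3 weeks, and these spots do not overlap. At 6 weeks they ran from 0.4996 to 0.579 in KO and from 0.430 to 0.467 in WT, again without overlap, with 9 spots kept in WT. The log2 KO/WT ratios of their means were -0.69 and 0.25. The 2 other Esr1 probes above background on all arrays had -0.40 and -0.10 at 3 weeks and 0.78 and 0.98 at 6 weeks, the same signs with other sizes. Spots of 1 array share a pool, so their spread is technical. Sex-biased genes stood beside these values: the median log2 KO/WT ratio of female-biased genes was -1.43 at 3 weeks and -0.22 at 6 weeks, and that of male-biased genes 0.95 and 0.28. Single sex-biased genes lay further apart at 6 weeks, with Cyp3a44 at -3.48 and Hao2 at -2.94 (female-biased) and Cyp4a12b at 2.59 (male-biased).

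The estrogen-related receptors are orphans that act with the coactivator PGC-1 alpha on mitochondrial genes. Esrrg was past 2-fold at 6 weeks and Esrra was within 1.5-fold at both ages. Esrrg, read at mm9 chromosome 1, 190038384 to 190038443, had 0.144 in KO and 0.163 in WT at 3 weeks and 0.211 in KO and 0.0849 in WT at 6 weeks. The log2 KO/WT ratios were thus -0.18 (3 weeks) and 1.32 (6 weeks), and a second probe gave -0.17 and 1.71. With normexp the 6-week ratio was 0.91. Esrra had 8.40 in KO and 7.83 in WT at 3 weeks and 10.3 in KO and 7.08 in WT at 6 weeks, log2 ratios of 0.10 and 0.53. Both genes are also expressed in muscle. The muscle marker sum was 79.9 in KO and 1.0 in WT at 3 weeks, and 54.1 in KO and 1.79 in WT at 6 weeks. The part of muscle RNA in the Esrrg and Esrra signals was not tested. Ppargc1a, which encodes PGC-1 alpha, had signals of 3.99 in KO and 2.02 in WT at 3 weeks and 4.42 in KO and 1.86 in WT at 6 weeks, log2 ratios of 0.98 and 1.25.

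The measured receptors of hepatocyte identity had log2 KO/WT ratios close to 0. Hnf4a had 68.7 in KO and 65.0 in WT at 3 weeks and 73.0 in KO and 68.0 in WT at 6 weeks, log2 ratios of 0.08 and 0.10. Nr5a2 (LRH-1), an activator of bile acid synthesis genes, had 3.69 in KO and 3.67 in WT at 3 weeks and 5.03 in KO and 4.97 in WT at 6 weeks. Both pairs lay within the spread between spots or close to it. Hnf4g was well above background only in KO at 3 weeks, with a signal of 0.0133, and its WT signal of 0.0170 did not pass the background flag, so no fold was given.

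The NR2 orphans, among them the testicular receptors Nr2c1 and Nr2c2 and the COUP-TF repressors Nr2f1, Nr2f2 and Nr2f6, stayed within 2-fold. At 3 weeks their log2 KO/WT ratios ran from -0.07 to 0.16. At 6 weeks they ran from -0.57 for Nr2f6, with 12.9 in KO and 19.1 in WT, to 0.35 for Nr2c1, with 1.33 in KO and 1.04 in WT. Nr2f6 had 15.6 in KO and 16.4 in WT at 3 weeks, so its KO array at 6 weeks was the lowest of the 4. Nr2f1 had 0.442 in KO and 0.396 in WT at 3 weeks and 0.284 in KO and 0.363 in WT at 6 weeks, and Nr2f2 had ratios of 0.01 and -0.06. Nr2e3, a photoreceptor gene, was not well above background on any array.

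The NR4A receptors varied with age as well as with genotype. Nr4a1, an early-response gene read at mm9 chromosome 15, 101105071 to 101105130, had 1.87 in KO and 2.67 in WT at 3 weeks and 0.571 in KO and 0.748 in WT at 6 weeks. KO was the lower of the pair at both ages, with log2 ratios of -0.51 and -0.39. Nr4a2, read at mm9 chromosome 2, 56960699 to 56960758, had 0.0978 in KO and 0.0603 in WT at 3 weeks and 0.0425 in KO and 0.172 in WT at 6 weeks. The ratios of 0.70 (3 weeks) and -2.02 (6 weeks) are opposite in sign. With normexp they were 0.39 and -1.33, and with the mean of all probes 0.26 and -2.23, so the higher signal in KO at 3 weeks was then under 1.5-fold. A dimmer second probe read 0.0289 in KO and 0.0325 in WT at 3 weeks, a ratio of -0.17, and at 6 weeks it was not well above background in KO and at least 5.07-fold lower there than in WT. The lower Nr4a2 signal in KO at 6 weeks was therefore read by both probes and the higher signal at 3 weeks by 1. Nr4a3 was not well above background on any array.

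Beside the NR4A genes, 15 other early-response genes were compared. Past 2-fold, 0 were higher and 1 lower in KO at 3 weeks, and 1 higher and 1 lower at 6 weeks. The shares of all genes were 2.94% higher and 2.98% lower at 3 weeks, and 6.51% and 4.56% at 6 weeks. Fos, a subunit of AP-1, had 0.138 in KO and 0.379 in WT at 3 weeks. Myc and Cyr61 had ratios of 1.22 and -1.14 at 6 weeks. These genes had no common direction between genotypes.

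Nr6a1, the germ cell nuclear factor, was past 2-fold through 1 array. It had 0.0488 in KO and 0.201 in WT at 3 weeks and 0.0696 in KO and 0.0551 in WT at 6 weeks. The WT array at 3 weeks stood above the other 3, which gives log2 KO/WT ratios of -2.04 (3 weeks) and 0.34 (6 weeks). With normexp the 3-week ratio was -1.34, and that of 6 over 3 weeks in WT was -1.17 in place of -1.87. Its single probe is dim on the other arrays, and no second probe was available to set beside it. Nr0b1 (DAX-1), a repressor best known from the adrenal gland, was not well above background on any array.

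Between ages, the receptors were on the median slightly higher at 6 weeks, and 4 of 30 were past 2-fold in each genotype. In KO, Nr1i3 was at least 2-fold higher and Ppard, Nr4a1 and Nr4a2 lower at 6 weeks than at 3 weeks, 4 of 30 against 12.5% of all genes (6.11% higher and 6.35% lower). In WT, Nr4a2 was at least 2-fold higher and Ppard, Nr4a1 and Nr6a1 lower, 4 of 30 against 9.58% of all genes (3.68% higher and 5.9% lower). Within 1.5-fold lay 23 of 30 in KO and 24 of 30 in WT, where 26.7% and 19.1% of all genes were past it. The median log2 ratio of 6 over 3 weeks was 0.24 in KO and 0.16 in WT, beside 0.06 and 0.01 over all genes. The median size of this ratio was 0.358 in KO and 0.288 in WT for receptors, and 0.312 and 0.227 for all genes. Ppard and Nr4a1 were lower at 6 weeks in both genotypes, by log2 ratios of -1.13 in KO and -1.44 in WT for Ppard, and of -1.71 and -1.84 for Nr4a1. Nr4a2 went opposite ways, at -1.20 in KO and 1.51 in WT, and with normexp the KO ratio was -0.68.

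Other receptors were higher at 6 weeks in both genotypes without reaching 2-fold. Nr2c2 had log2 ratios of 6 over 3 weeks of 0.46 in KO and 0.53 in WT, Nr5a2 of 0.45 and 0.44, and the brighter Rora probe of 0.40 and 0.36. The dim second Rora probe had the opposite direction, with -0.24 in KO and -0.98 in WT. Early-response genes as a list were lower at 6 weeks, with 5 of 15 at least 2-fold lower in KO and 5 of 15 in WT and medians of -0.62 and -0.78. Markers of dividing cells, erythroid cells and neutrophils were also lower at 6 weeks: 10 of 11 dividing-cell markers in KO and 11 of 11 in WT were at least 2-fold lower, as were 5 of 9 and 8 of 9 erythroid markers and 6 of 9 and 7 of 9 neutrophil markers. Of all genes, 6.35% in KO and 5.9% in WT were at least 2-fold lower at 6 weeks. The part of these cells in the age ratios was not tested.

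**Figure D4:**
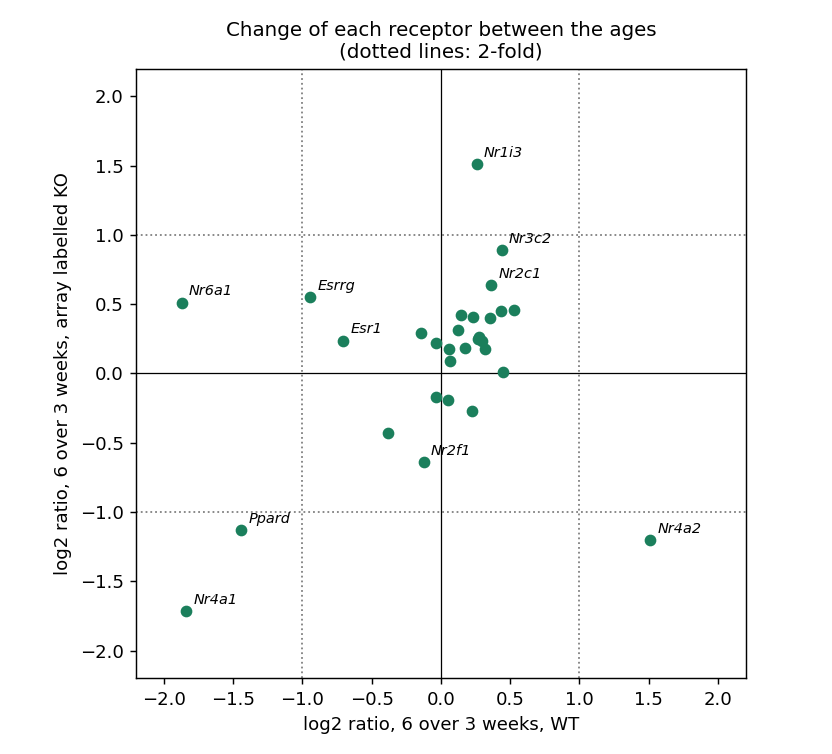
Log2 ratio of 6 over 3 weeks in KO (y axis) against that in WT (x axis) for the 30 receptors, with dotted 2-fold lines. Ppard and Nr4a1 lie low on both axes, and Nr4a2 lies low in KO and high in WT.

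The targets of these receptors were read from lists of known target genes, some shared between lists. The lists were chosen with results of these data known, so a count beside the share of all genes is a description only. Of the glucocorticoid list, 8 of 17 members were higher in KO by 2-fold or more at 6 weeks and 0 lower, against 6.51% of all genes higher. Its median log2 KO/WT ratio was 0.96 at 6 weeks, beside 0.05 over all genes, and 0.22 at 3 weeks, when 1 of 17 was higher and 0 lower. The summed signal of the list was 689.7 in KO and 525 in WT at 3 weeks and 809.9 in KO and 300.4 in WT at 6 weeks. The metallothionein Mt1 had 195 in KO and 29.9 in WT at 6 weeks, and Mt2 had a log2 ratio of 3.81. Estrogen sulfotransferase, Sult1e1, had 0.742 in KO and 0.288 in WT at 3 weeks and 15.3 in KO and 0.0210 in WT at 6 weeks. WT was the low array at 6 weeks for this list: 4 of 17 genes were at least 2-fold lower at 6 than at 3 weeks in WT and 0 in KO. Of all genes, 5.9% were at least 2-fold lower at 6 weeks in WT and 6.35% in KO. The receptor gene Nr3c1 itself was within 1.5-fold between genotypes at both ages.

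Of the targets of CAR and PXR, 5 of 19 were at least 2-fold lower in KO at 3 weeks, against 2.98% of all genes, and 0 higher, with a median of -0.32. At 6 weeks 0 of 20 were higher and 2 lower, against 6.51% and 4.56% of all genes, with a median of 0.06. Some lay under 2-fold higher in KO at 6 weeks, and others were lower or little changed. The genes named next were picked after their values were seen. Por, the reductase that serves cytochromes P450, had 0.99, Cyp2c54 0.98, Cyp2c50 0.84 and Cyp2c37 0.77. Cyp3a16 had -1.13, Cyp3a11 -0.47, Aldh1a7 -0.36, Ces2a -0.35 and Cyp2b10 0.21. At 3 weeks Cyp2b10 was among the 5 lower targets, with 15.2 in KO and 39.9 in WT, a ratio of -1.39. From 3 to 6 weeks, 5 of 19 targets were at least 2-fold higher in KO and 1 lower, with a median of 0.55. In WT 1 of 20 was higher and 0 lower, with a median of 0.16. Of all genes, 6.11% were higher and 6.35% lower at 6 weeks in KO, and 3.68% and 5.9% in WT. Cyp2b9 and Cyp2b13, which are also female-biased enzymes, had ratios of -1.43 and -1.60 at 3 weeks and -0.10 and -0.35 at 6 weeks. Cyp2c55 was lower in KO at both ages, with 0.393 in KO and 0.916 in WT at 3 weeks and 0.0914 in KO and 1.05 in WT at 6 weeks.

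For LXR, PPAR, thyroid hormone, retinoic acid and HNF4A targets, medians lay between -0.17 and 0.04 at 3 weeks and between -0.18 and 0.12 at 6 weeks. Among 13 LXR targets 0 were past 2-fold at 3 weeks, and at 6 weeks Cyp7a1, the rate-limiting enzyme of bile acid synthesis, was higher at 1.55 and Pltp lower at -1.57. Of 20 PPAR targets 4 were at least 2-fold lower in KO at 6 weeks and 0 higher, against 4.56% of all genes lower. Fgf21, a hormone of the fasted liver, had 0.467 in KO and 1.82 in WT, and Ehhadh, a peroxisomal fatty acid enzyme, 13.4 in KO and 33.4 in WT. Of 9 thyroid hormone targets 1 was higher and 2 lower at 6 weeks, and malic enzyme, Me1, had a ratio of -1.21. No retinoic acid target of 7 and no HNF4A target of 14 was past 2-fold at 3 weeks, and at 6 weeks Cyp7a1 alone was, as an HNF4A target.

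**Figure D5:**
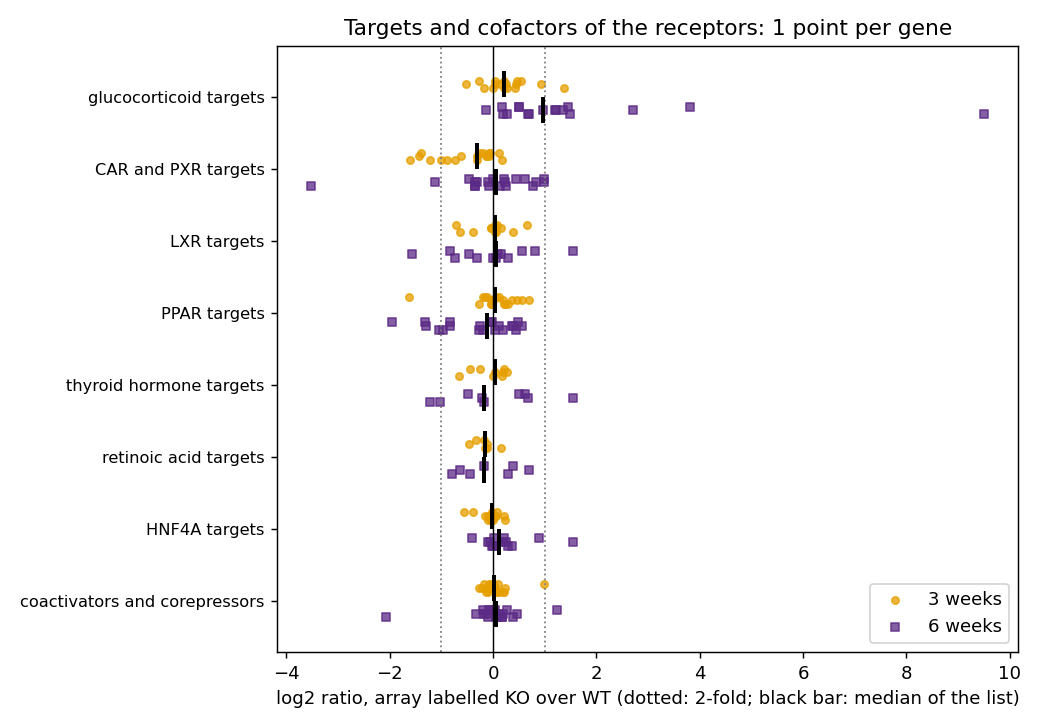
Log2 KO/WT ratios (x axis) of the genes in each target and partner list at 3 and 6 weeks, with the median of each list marked. The glucocorticoid list at 6 weeks has its median at 0.96, and Sult1e1 is its rightmost point.

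Partners and ligand supply completed the pathway. Of 19 coactivators and corepressors 0 were past 2-fold at 3 weeks, and at 6 weeks Ppargc1a was higher at 1.25 and Ppargc1b lower at -2.07. Among genes of ligand supply and carriage, 3 of 19 were at least 2-fold higher in KO at 3 weeks and 1 of 18 at 6 weeks, with 0 lower at either age. The shares of all genes higher were 2.94% and 6.51%. For 1 of the 3 at 3 weeks the ratio was a bound, with 1 array well above background. Serpina7, thyroxine-binding globulin, had a ratio of 1.23 at 3 weeks, and Srd5a1, which reduces steroids, had -0.97 at 6 weeks. Past 2-fold in KO at 6 weeks, 7 of 15 core clock genes were higher and 2 lower, and at 3 weeks 0 higher and 1 lower. Of all genes, 6.51% were higher and 4.56% lower at 6 weeks, and 2.94% and 2.98% at 3 weeks. The clock medians were 0.91 at 6 weeks and -0.07 at 3 weeks. The part of sampling time in Nr1i3 or in the glucocorticoid list was not tested.

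A model over the 4 arrays with genotype and age, which has 1 residual degree of freedom, gave a test of each over the levels of the other. For genotype, by limma with Benjamini-Hochberg adjustment 0 of 22675 genes passed an adjusted p of 0.05 and 1009 had an unadjusted p under 0.05 (4.45%), and of the 31 receptors tested 0 passed. Nr3c2 was the 1 receptor with an unadjusted p under 0.05: it was higher in KO at both ages, by a mean log2 ratio of 0.83 ± 0.202 (SE, limma), with an adjusted p of 0.914. Which receptors had an unadjusted p under 0.05 varied with the setting: none without the age term, Nr4a1 alone with normexp, and both Nr3c2 and Nr4a1 with a variance trend or the filter on all arrays, and Nr3c2 alone with quantile normalization or the mean of all probes. For age, a test added after the data were seen, limma with Benjamini-Hochberg adjustment passed 0 of 22675 genes, 2311 had an unadjusted p under 0.05 (10.2%), and of the 31 receptors 0 passed. Nr4a1 and Ppard were the 2 receptors with an unadjusted p under 0.05 for age. They were lower at 6 weeks in both genotypes, by mean log2 ratios of -1.78 ± 0.148 and -1.29 ± 0.173 (SE, limma), with adjusted p of 0.400 and 0.431. Where a receptor has several probes, their ratios were set side by side. Of 22 pairs of the brightest and another probe, 19 in 17 genes were well above background on both arrays at 3 weeks and 17 in 16 genes at 6 weeks. The median gap between their log2 KO/WT ratios was 0.0928 at 3 weeks and 0.158 at 6 weeks, and gaps over 0.5 arose in 2 pairs at 3 weeks (Esr1 and Nr4a2) and 3 pairs at 6 weeks (2 of Esr1 and 1 of Rora).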

How the data were processed

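Total RNA of mouse liver, 5 animals to a pool, was hybridised to 4 one-colour Agilent arrays, 1 array per group. The authors' scanner files give each spot's intensity after background subtraction, per the file headers, and the submitters' processing notes name Agilent Feature Extraction 11.5.1.1 as the software. Flags of 0 or 1 in the deposited files (unit: other) mark outliers, saturation and spots well above background. A deposited value table by the authors holds the ratio of that intensity to the 75th percentile of its array: quotients with the values computed here were near 1 on each array, so scale, centring and direction are known. Its medians were 0.0815 (KO) and 0.0797 (WT) at 3 weeks and 0.0798 (KO) and 0.0778 (WT) at 6 weeks. Positions follow mm9, per the file headers. RefSeq promoters follow GRCm38.p6.

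From the intensity, log2 values were computed and centred on the log2 75th percentile of non-control spots. Saturated spots numbered 0, and 189 to 252 outliers per array were dropped. Spots of a probe were averaged, and each gene was read from its brightest probe. Genes needed a signal well above background on 1 array of a pair, and a ratio with 1 dim array is a bound against that array's lowest signal above background. The 36 receptors have 58 probes, and all 36 accessions carry the same symbol in RefSeq, where 33 have a promoter. limma 3.58.1 (R 4.3.3) modelled genotype and age together and was tested on simulated data for genotype. Python 3.11.15, numpy 2.4.6, pandas 2.3.3 and matplotlib 3.10.9 did the rest.

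Named were all receptors, Pnpla7, and up to 3 genes per other list, those with the largest KO/WT ratio in size at either age among genes well above background on every array. Further genes of the CAR and PXR list were named after their values were seen. The receptors and lists were chosen with earlier results of these data known. Other settings tried were normexp (offset 50) followed by quantile normalization, quantile normalization by itself, scaling to the median, stricter and looser background filters, averaging probes, keeping outliers, the deposited table, a threshold of 1.5-fold, and limma with no age term or with a variance trend. Precision is limited by the number of arrays.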

Additional observations from a re-analysis of the deposited data

Results flagged for a closer look

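Nr4a2 was the receptor whose KO/WT ratio turned round between ages past 1.5-fold on both sides. Its log2 ratio was -2.02 at 6 weeks and 0.70 at 3 weeks, a difference of -2.71. With 1 array per group this difference was not tested. The second Nr4a2 probe was also lower in KO at 6 weeks, by at least 5.07-fold, and had a ratio of -0.17 at 3 weeks, so the turn in sign was read by 1 probe. With normexp the ratios were -1.33 at 6 weeks and 0.39 at 3 weeks, and with the mean of all probes -2.23 and 0.26, where the 3-week side was under 1.5-fold.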

How the results depend on the processing

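No paired analysis was possible because each group has 1 array and the labels give no replicate numbers, and leaving out an array leaves the fit with age no residual degree of freedom. The count of receptors past the threshold between KO and WT at 6 weeks was 4, against 1 (Nr4a2) with normexp and quantile normalization. At a threshold of 1.5-fold it was 4 in place of 1 at 3 weeks, and 7 in place of 4 for 6 over 3 weeks in KO. limma with a trend in the variance prior called 4 genes, none a receptor, in place of 0. The test of age, added after the data were seen, called 0 genes in each of 5 other settings. Of 960 single receptor values under other settings, 893 moved by less than the spread between spots, 67 moved by more and 0 changed sign past 2-fold. Of 120 values per setting, 31 moved by more with normexp, 27 with the mean of all probes and 9 with quantile normalization. Each other setting moved 0 of 120. Among them, the background filters could not move a value and the deposited table hardly could, so the total of 960 is no measure of stability. At 6 weeks Nr1i3 was under 2-fold with normexp, quantile normalization and the mean of all probes, and Nr3c2 (0.62) and Esrrg (0.91) with normexp. In KO between ages Nr4a2 had -0.68 with normexp. Nr6a1 (-1.34 at 3 weeks) and Nr4a2 (-1.33 at 6 weeks) were over 1.5 times smaller in log2 size with normexp and still past 2-fold. Over all genes, the counts past 2-fold at 3 weeks, at 6 weeks, between ages in KO and between ages in WT were 1254, 2363, 2702 and 2013. They were 526, 1049, 1307 and 876 with normexp, 412, 1274, 1574 and 1029 with the filter on all 4 arrays, 2524, 3844, 4271 and 3347 with no filter, and 2294, 4896, 5793 and 4017 at 1.5-fold. Dim signals limit Nr3c2, Nr4a2, Nr6a1 and Esrrg. The causes of these shifts were not tested.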

Other observations

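Among markers of other liver cells, those of Kupffer cells had a median log2 KO/WT ratio of -0.82 at 6 weeks, beside -0.07 at 3 weeks. Emr1, the macrophage marker also known as Adgre1, had 0.776 in KO and 2.27 in WT at 6 weeks, and 2.36 in KO and 2.35 in WT at 3 weeks. Endothelial markers had medians of -0.43 at 6 weeks and 0.07 at 3 weeks, with Cdh5, an endothelial cadherin, at -1.07 at 6 weeks. Stellate cell markers had medians of -0.35 and 0.09. Des, an intermediate filament protein of stellate cells and of muscle, was higher in KO at both ages, at 2.35 at 6 weeks and 1.99 at 3 weeks.

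Markers of dividing cells were low in KO at 6 weeks, where Ccnb1, a mitotic cyclin, had 0.0278 in KO and 0.217 in WT. Hbb-b1, a beta globin, was lower at 6 weeks in both genotypes, with log2 ratios of 6 over 3 weeks of -4.01 in KO and -3.92 in WT. Cyp26a1, which degrades retinoic acid, had ratios of 6 over 3 weeks of 3.54 in KO and 2.38 in WT.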
